A study of Mus musculus with 12 samples.

Results

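The genes that end the photoresponse and return photoreceptors to their dark state were followed in whole mouse retina after Otx2 was deleted in photoreceptors. The 10 genes were listed by name for this function and were found by their Ensembl identifiers among 54146 genes counted. They were Grk1, Rcvrn, Rgs9, Rgs9bp, Gnb5, Gucy2e, Gucy2f, Guca1a, Guca1b and Slc24a1, and all 10 passed the filter on low counts, as did 18628 genes in all. RNA came from 12 retinas, 1 library per mouse, with 3 mice in each of 4 groups: P30 controls (mice 1 to 3) and Otx2 knock-out mice (cKO) at P32 (mice 4 to 6), P34 (mice 7 to 9) and P38 (mice 10 to 12), which were 2, 4 and 8 days past a single tamoxifen injection given at P30. In the study, a Crx-CreERT2 transgene gave a Cre that tamoxifen activates, which recombined floxed Otx2 alleles and removed an exon that encodes most of the homeodomain. The labels call the P30 mice only control, so their alleles are not stated further here. Age, tamoxifen and deletion changed together between P30 and the cKO groups and cannot be told apart. Total counts on genes ran from 29701483 to 60145034 per library.

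When light activates its receptor in the outer segment, the G protein transducin switches on a phosphodiesterase, cGMP falls and cation channels close. Recovery needs each of these steps to be reversed. The activated receptor is phosphorylated by the kinase Grk1, which the calcium sensor recoverin (Rcvrn) holds back in the dark. Transducin is switched off by Rgs9, which works with the G protein subunit Gnb5 and is anchored to the membrane by Rgs9bp. cGMP is made again by the retinal guanylate cyclases Gucy2e and Gucy2f, which the calcium sensors Guca1a and Guca1b activate when calcium falls. Calcium leaves the rod outer segment through the exchanger Slc24a1.

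The receptor kinase and its regulator were Grk1 (ENSMUSG00000031450, chr8:13405081-13421951, plus strand) and Rcvrn (ENSMUSG00000020907, chr11:67695326-67703333, plus strand), with positions in GRCm38. The transducin shutoff genes were Rgs9 (ENSMUSG00000020599, chr11:109225355-109298129, minus strand), Rgs9bp (ENSMUSG00000056043, chr7:35578993-35585582, minus strand) and Gnb5 (ENSMUSG00000032192, chr9:75306288-75345876, plus strand). The cyclases were Gucy2e (ENSMUSG00000020890, chr11:69218117-69237036, minus strand) and Gucy2f (ENSMUSG00000042282, chrX:142081160-142196931, minus strand). The activators Guca1a (ENSMUSG00000023982, chr17:47394558-47400584, minus strand) and Guca1b (ENSMUSG00000023979, chr17:47385393-47392967, plus strand) are neighbours on chromosome 17. The exchanger was Slc24a1 (ENSMUSG00000034452, chr9:64922861-64951607, minus strand). Counts cover the exons of each gene.

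Otx2 is a homeodomain factor, and its family binds the core TAATCC. RefSeq promoter windows (GRCm38.p6, from 250 bases before to 50 bases after the start of the gene) were at hand for 7 of the 10 genes, all but Rcvrn, Rgs9bp and Guca1b. TAATCC was found on either strand in 4 of the 7, while 7.06% of 32851 windows held it. The bases before the start of these 4 genes are shown because the deleted factor belongs to the family that reads this core. They are written 5′ to 3′ on the strand of the gene, without bases that GENCODE places inside the gene, and capitals mark TAATCC or its reverse complement GGATTA.
Gnb5, chr9:75306168-75306287, plus strand: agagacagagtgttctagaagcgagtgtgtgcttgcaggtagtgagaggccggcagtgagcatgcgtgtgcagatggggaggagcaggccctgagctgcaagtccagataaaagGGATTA
Gucy2e, chr11:69237037-69237142, minus strand: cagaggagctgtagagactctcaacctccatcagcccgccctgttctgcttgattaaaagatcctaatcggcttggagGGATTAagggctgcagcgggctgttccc
Guca1a, chr17:47400607-47400726, minus strand: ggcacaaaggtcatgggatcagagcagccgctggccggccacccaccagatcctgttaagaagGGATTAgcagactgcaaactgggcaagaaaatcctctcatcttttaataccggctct
Gucy2f, chrX:142196937-142197056, minus strand: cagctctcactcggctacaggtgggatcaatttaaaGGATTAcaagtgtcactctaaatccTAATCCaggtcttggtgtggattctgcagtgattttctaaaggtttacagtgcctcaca
The match began 6 bases before the RefSeq start in Gnb5, 42 bases before it in Gucy2e and 57 bases before it in Guca1a. Gucy2f held both orientations, 84 and 59 bases before the start. The windows of Grk1, Rgs9 and Slc24a1 held no TAATCC. The core TGCTGA, part of the site read by the rod factor NRL, was present in the windows of Grk1 and Rgs9, against 19.5% of all windows. These matches describe the letters of each window and do not show binding.

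Otx2 itself, counted over all its exons, had 293, 328 and 315 CPM (counts relative to library size, scaled by the TMM method) in P30 mice 1 to 3. The cKO retinas had 322, 340.0 and 372 CPM (P32), 328, 331 and 377 CPM (P34) and 377, 307 and 372 CPM (P38). A count over the whole gene does not measure loss of 1 exon, so it does not check the deletion. The study set reads of the deleted exon against a neighbouring exon and reported a relative reduction at P32, P34 and P38. The photoreceptor markers Crx, Nrl, Prph2 and Rom1 were all well above background, with a summed level of 11743 to 12062 CPM at P30, 11115 to 13105 at P32, 12666 to 15145 at P34 and 11591 to 17098 at P38. In whole retina, a change in the share of photoreceptors and a change in RNA per photoreceptor cannot be told apart. The libraries also differed in other ways. Summed lens markers (6 genes) ranged from 181 to 29200 CPM, summed smooth muscle and ciliary markers (4 genes) were 28.9 to 196 CPM at P30 against 9.06 to 47.3 CPM in the cKO mice, with all 4 of these past the threshold for a change at P34 against P30. The melanin genes Tyr and Pmel, of 7 listed for pigment epithelium, passed it as lower in all cKO against P30. In that comparison 4 of the 7 had positive log2 fold changes, of at most 0.25, and the median of the 7 was 0.001. No listed marker of bipolar, amacrine, ganglion, horizontal, Muller glial, lens or microglial cells passed the threshold in a comparison with P30. At an unadjusted p of at most 0.05 (edgeR test), all 6 lens markers were nevertheless lower at P34, with log2 fold changes of −7.89 to −4.51, and 1 at P38. All 4 ganglion cell markers were higher at P34 at this level, with log2 fold changes of 0.43 to 0.60, and 2 of the 4 at P38. Of all genes, 10.5% reached it at P34 and 5.64% at P38. Xist was at the female level in all 3 P30 mice and in 4 of the 9 cKO mice. The part of these differences in the results was not tested, except that sex was also fitted as a covariate. In that fit no gene of the 10 passed the threshold, the log2 fold changes of Rgs9 relative to P30 were 1.17 (P34) and 1.42 (P38), and those of Guca1a were −0.15 (P34) and −0.05 (P38), against 0.60, 0.88, 0.10 and 0.19 without the covariate.

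In P30 retina, levels per length (RPKM, the CPM per kilobase of exons) were highest for the small calcium sensors. Rcvrn averaged 1084 ± 84.0 RPKM (SD, n = 3), Guca1a 779.7 ± 104.7 and Guca1b 568 ± 77.8. Slc24a1 followed at 302 ± 32.4 RPKM. Gnb5 (216 ± 9.60 RPKM) and Grk1 (212 ± 29.6 RPKM) overlapped in their P30 values. Rgs9bp stood at 133 ± 10.7 RPKM and the cyclase Gucy2e at 67.5 ± 8.64 RPKM. Rgs9 (30.0 ± 13.4 RPKM) and Gucy2f (28.5 ± 6.29 RPKM) were lowest and overlapped each other. Among the transducin shutoff genes, the catalytic subunit Rgs9 was thus listed below both its partners, and Gucy2f was listed below the other cyclase. These are RNA levels of whole retina, so they do not give the proportions of subunits in photoreceptors. Exon lengths join all annotated transcripts of a gene, which lowers the RPKM of genes with long, little-used exons.

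**Figure D1:**
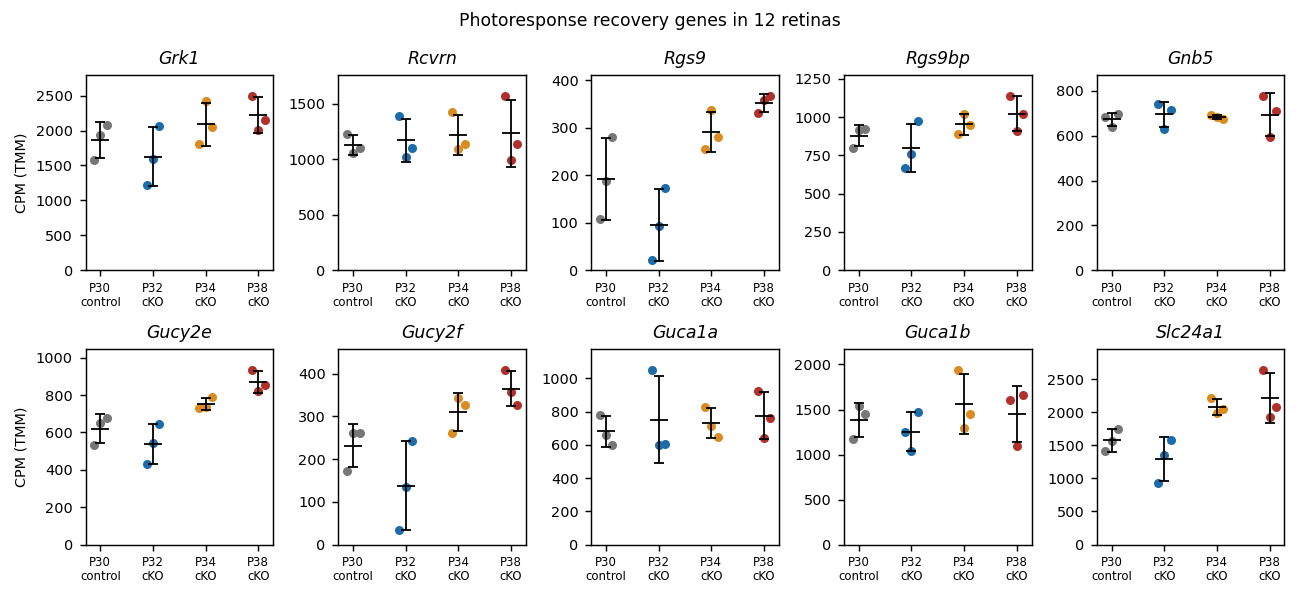
CPM of each of the 10 genes (y axis, from 0) in the 4 groups (x axis). Points are single mice, 3 per group, and the black bar is the mean ± SD. Relative to the group mean, Rgs9 and Gucy2f at P32 spread most, from 21 to 172 CPM and from 35.0 to 243 CPM, while Gnb5 stays between 593 and 780 CPM in all 12 retinas.

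The comparisons of each age with P30 share the same 3 control mice. None of the 10 genes passed the threshold for a change in any of 7 comparisons (edgeR quasi-likelihood test on all 12 libraries, adjusted by the Benjamini-Hochberg method, with a limit of 0.05 on p and of 0.5 on the absolute log2 fold change). At P32 against P30 the count was 0 of 10, beside 0% of all genes tested. At P34 against P30 it was 0 of 10 beside 0.66%, and at P38 against P30 0 of 10 beside 0%. For all 9 cKO retinas against P30 it was 0 of 10 beside 0.36%. Between cKO ages, 0 of 10 passed at P34 against P32 (0.242% of all genes), at P38 against P34 (0.199%) and at P38 against P32 (0%). A test for any difference among the 4 groups, with no limit on the fold, also gave 0 of 10, beside 0.344%.

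At an unadjusted p of at most 0.05, none of the 10 stood out at P32 (5.64% of all genes did) or at P34 against P30 (10.5%), and 2 did at P38 against P30 (5.64%), Gucy2e and Slc24a1. For all cKO against P30 the count was 0 (4.19%) and for P38 against P34 it was 0 (5.08%). It was 4 for P34 against P32, where 26.9% of all genes reached this level, and 6 for P38 against P32, where 23.3% did. For any difference among the groups it was 3, beside 17.2%. With the same thresholds, DESeq2 called none of the 10 at P32, P34 or P38 against P30, where it called 0.131%, 1.64% and 0.252% of the genes given an adjusted p. It called none for all cKO against P30 (0.703%) or at P38 against P34 (0.694%). It called Slc24a1 at P34 against P32, beside 8.1% of genes, and Gucy2e, Rgs9 and Slc24a1 at P38 against P32, beside 5.26%. For any difference it called Gucy2e and Slc24a1, beside 6.83%.

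**Figure D2:**
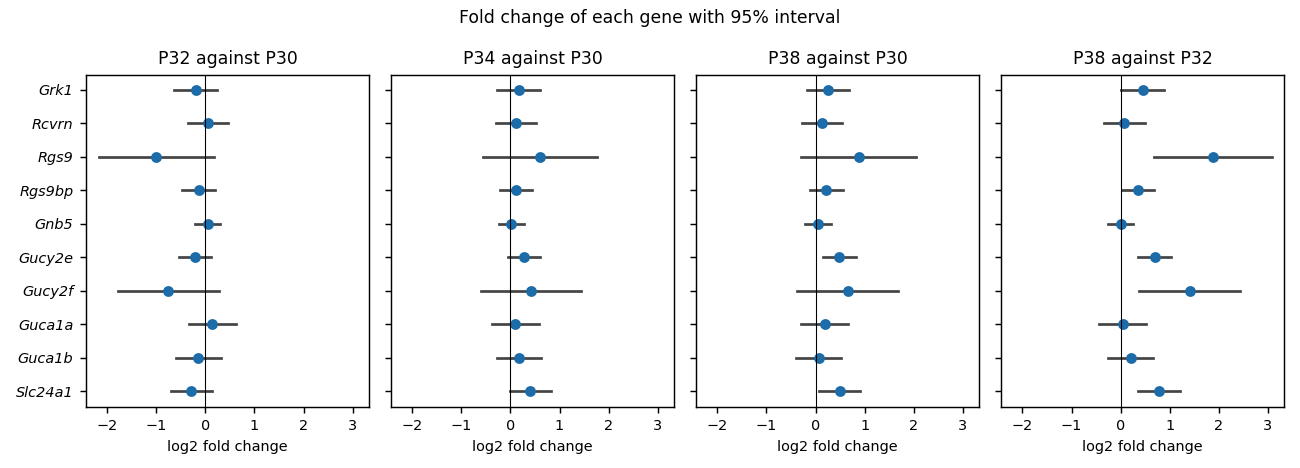
Log2 fold change (x axis) of each gene (y axis) in 4 comparisons, from the edgeR fit, with its 95% interval as a bar. The bars of P32 against P30 all cross 0, and at P38 against P32 those of Grk1, Rgs9, Rgs9bp, Gucy2e, Gucy2f and Slc24a1 lie to the right of it. The first 3 panels share the P30 mice.

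Of the pair that controls receptor phosphorylation, Grk1 had 1576, 1935 and 2082 CPM at P30 and 1216, 1594 and 2064 CPM at P32. It had 1808, 2419 and 2047 CPM in the P34 group and 2501, 2008 and 2152 CPM at P38. The groups overlapped with P30 at every age. Relative to P30, its log2 fold change came to −0.20 ± 0.20 (SE) in the P32 group, 0.17 ± 0.20 in the P34 group and 0.25 ± 0.20 in the P38 group, with adjusted p of 0.742, 0.825 and 0.858.

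Rcvrn, the partner that restrains the kinase, had 1225, 1057 and 1100 CPM at P30 and 1391, 1016 and 1100 CPM at P32. At P34 it had 1423, 1089 and 1134 CPM and at P38 1573, 993 and 1132 CPM. In each cKO group 1 mouse (4, 7 and 10) stood above all P30 mice and the other two lay within or below the P30 range. Relative to P30, the log2 fold change of Rcvrn came to 0.05, 0.11 and 0.13 in the P32, P34 and P38 groups, each ± 0.19, none past the threshold. With 1 mouse left out, the lowest values were −0.09, −0.03 and −0.08, so the signs were not stable.

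Of the transducin shutoff complex, Rgs9 varied most of all 10 genes. It had 108, 188 and 279 CPM at P30, then 21, 94.1 and 172 CPM at P32. It had 255, 338 and 279.8 CPM in the P34 group and 329.8, 358 and 368 CPM at P38. The P32 and P30 groups overlapped, the P34 and P38 mice were all above the P32 mice, and the P38 mice were all above the P30 mice. Relative to P30, the log2 fold change of Rgs9 came to −0.997 ± 0.54 in the P32 group, 0.60 ± 0.53 in the P34 group and 0.88 ± 0.53 in the P38 group (adjusted p of 0.698, 0.733 and 0.847). The P32 value was −0.52 without mouse 4 and −1.73 without mouse 6. Without P30 mouse 1 the P34 and P38 values were 0.32 and 0.59, and without P30 mouse 3 they were 0.97 and 1.25. From P32 to P38 it was 1.88 ± 0.55, with an unadjusted p of 0.0052 and an adjusted p of 0.118 in the edgeR test.

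Its anchor Rgs9bp had 797, 919 and 921 CPM at P30, 670 to 973 CPM (P32), 887 to 1022 CPM (P34) and 908 to 1141 CPM (P38). Its log2 fold changes against P30 were −0.14 ± 0.15, 0.12 ± 0.15 and 0.22 ± 0.15. Gnb5, the third subunit, was the steadiest of the 10, with 639 to 695 CPM in the P30 group, 632 to 740 CPM (P32), 676 to 694 CPM (P34) and 593 to 780 CPM (P38). The log2 fold changes of Gnb5 against P30 were 0.05, 0.02 and 0.05, each ± 0.12, and the 95% intervals stayed within −0.24 and 0.31. Gnb5 shares 248 exonic bases with the antisense gene Gm19531, which had only 8 to 38 counts per library. The strand option of the counting is not given in the sources used here.

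Of the cyclases, Gucy2e had 531, 653 and 679.6 CPM at P30 and 431, 541 and 643 CPM at P32. It had 729.9, 734 and 788 CPM in the P34 group and 935, 821 and 854 CPM at P38. All P34 and P38 mice were above all P30 and P32 mice. Relative to P30, the log2 fold change of Gucy2e came to −0.21, 0.27 and 0.49 in the P32, P34 and P38 groups, each ± 0.15, the last with an unadjusted p of 0.00763 and an adjusted p of 0.847 in the edgeR test. From P32 to P38 it was 0.69 ± 0.15 (unadjusted p of 0.000676, adjusted p of 0.114).

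Gucy2f, the second cyclase, had 173, 260.3 and 262 CPM at P30 and 35.0, 135 and 243 CPM at P32. At P34 it had 260.3, 343 and 327 CPM and at P38 409, 357 and 327 CPM. The P34 and P38 mice were all above the P32 mice, and the P38 mice above the P30 mice. Its log2 fold change against P30 was −0.75 ± 0.47, 0.42 ± 0.47 and 0.65 ± 0.47 at the 3 ages. The P32 value was −0.29 without mouse 4 and −1.45 without mouse 6. From P32 to P38 it was 1.41 ± 0.47 (adjusted p of 0.135, edgeR).

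The cyclase activators are calcium sensors. Guca1a had 781, 660.0 and 601 CPM in the P30 mice, followed by 1051, 598 and 605 CPM (P32), 827, 714 and 649 CPM (P34) and 924, 641 and 759 CPM (P38). Its log2 fold changes against P30 were 0.14, 0.10 and 0.19, each ± 0.22. With 1 mouse left out, the P32 value fell as low as −0.18, so its sign was not stable. Guca1b had 1173, 1535 and 1453 CPM in the P30 mice, then 1041 to 1477 CPM (P32), 1300 to 1941 CPM (P34) and 1091 to 1656 CPM (P38), with log2 fold changes of −0.14, 0.17 and 0.06, each ± 0.21. The groups of both genes overlapped at every age.

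Slc24a1, the calcium exchanger, had 1407, 1567 and 1744 CPM at P30 and 935, 1351 and 1583 CPM at P32. It had 2212, 1980 and 2050 CPM in the P34 group and 2640, 1922 and 2073 CPM at P38. As for Gucy2e, all P34 and P38 mice were above all P30 and P32 mice. Relative to P30, the log2 fold change of Slc24a1 came to −0.29, 0.40 and 0.49 in the P32, P34 and P38 groups, each ± 0.19, the last with an unadjusted p of 0.0255 and an adjusted p of 0.847 in the edgeR test. From P32 to P38 it was 0.78 ± 0.19 (adjusted p of 0.114).

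Counted over the 10 genes, groups did not overlap in 0 genes at P32 against P30 (9.65% of all genes), in 2 at P34 (20.1%) and in 4 at P38 (16.2%). They did not overlap in 4 genes at P34 against P32 (28.4%) and in 4 at P38 against P32 (26.4%). The median log2 fold change of the 10 relative to P30 came to −0.17, 0.17 and 0.24 in the P32, P34 and P38 groups, against medians of −0.01, −0.00 and −0.01 over all genes tested. The 9 rod cascade genes had medians of −0.10, 0.29 and 0.35 in the same comparisons, and the 9 cone cascade genes −0.01, 0.08 and 0.05. None of either list passed the threshold.

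The genes with a course in common were those with the longest transcripts. The 6 longest, Gucy2e (8331 bases), Gucy2f (8122), Grk1 (7431), Rgs9bp (6590), Slc24a1 (5213) and Rgs9 (3464), correlated with each other across the 12 libraries with Pearson r of 0.87 to 0.98 over 15 pairs. The 4 shortest, Gnb5 (2105 bases), Guca1b (1668), Rcvrn (1040) and Guca1a (873), correlated at 0.24 to 0.86 over 6 pairs, and with the 6 longest at −0.44 to 0.55 over 24 pairs. Points in these correlations share the library and its scaling, and the division by length was made after the values were seen. Without mouse 4 the ranges were 0.74 to 0.96, 0.48 to 0.88 and 0.18 to 0.64.

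Libraries also differed in how levels followed transcript length over other genes. Over 10350 genes with a mean of at least 10 CPM, none of them among the 10, the slope of a gene's log2 deviation from its median per doubling of transcript length was −0.46 in P32 mouse 4 (r = −0.63 across genes, which are not independent). It was −0.13 in P32 mouse 5 and −0.12 in P30 mouse 1, and between −0.05 and 0.13 in the other 9 libraries. Mice 1, 4, 7 and 10, which carry the lowest number in their groups, had the lowest slope of each group, the highest share of reads without a unique position (27.2, 32.2, 29.3 and 28.5%) and the highest Rcvrn and Guca1a. They also had the lowest Grk1, Rgs9, Rgs9bp, Gucy2e and Gucy2f of their group relative to the rod cascade. In CPM this also held for mice 1, 4 and 7, but mouse 10 had the highest Grk1, Rgs9bp, Gucy2e and Gucy2f of its group. The summed rod cascade was highest of all libraries in mice 7 and 10 (96810 and 106100 CPM). The labels name no batch that mice 1, 4, 7 and 10 share, and the part of these differences in the results was not tested. Mouse 4 also had the lowest value of the 6 longest genes of the 10 and the highest of Guca1a. Its largest deviation from a gene's median was in Rgs9 (−3.67 log2 units), the shortest of those 6. The others of the 6 ran from −2.90 (Gucy2f) to −0.46 (Rgs9bp). With this slope as a covariate, a fit chosen after seeing the data, the P38 against P32 log2 fold change was 1.04 for Rgs9 instead of 1.88, 0.72 for Gucy2f instead of 1.41, 0.49 for Gucy2e and 0.59 for Slc24a1, and 0.54 for Guca1a instead of 0.04. Without mouse 4 those of Rgs9 and Gucy2f were 1.40 and 0.95, and no gene of the 10 passed the threshold in either fit. Without mouse 6 they were 2.61 and 2.10. Whether the slope reflects RNA quality was not tested.

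**Figure D3:**
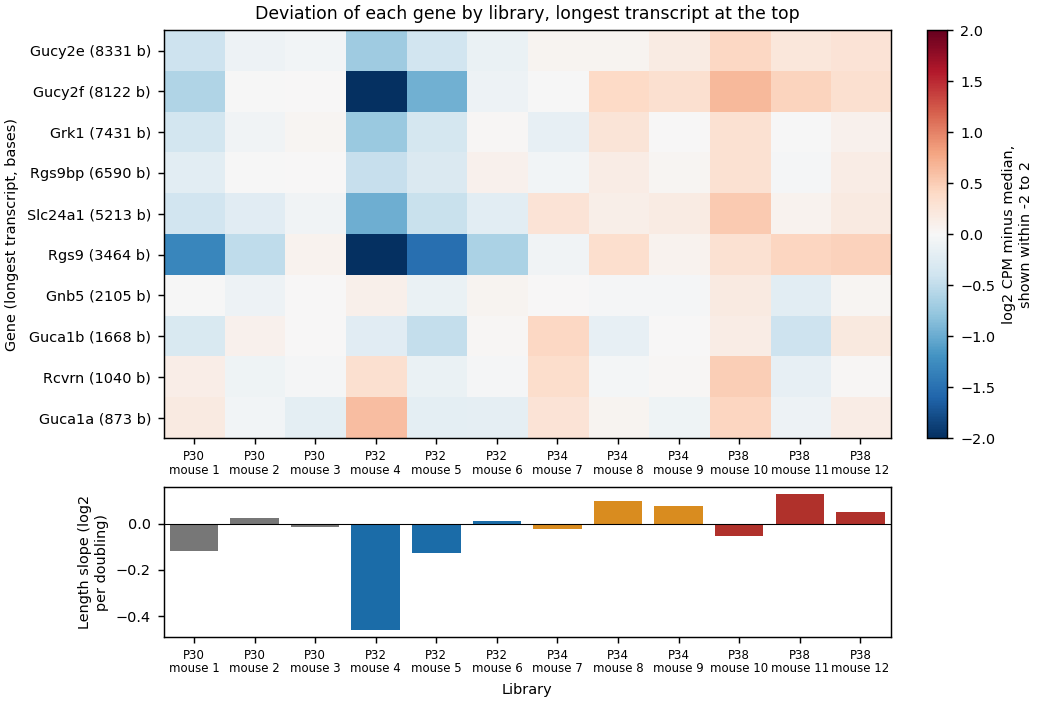
Top: log2 CPM minus the median over 12 libraries (color, shown within −2 to 2) for each gene, ordered from the longest transcript at the top, in each library (x axis). Bottom: length slope of each library over 10350 other genes (y axis, log2 units per doubling of length), lowest in P32 mouse 4 at −0.46. The 6 longest genes are darkest blue in mouse 4, where Guca1a is red.

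The calls between cKO ages also turned on P32 mouse 6, whose values were the highest of its group for the 6 longest genes. Without it, 4 of the 10 genes passed the threshold at P34 against P32 (Rgs9, Gucy2e, Gucy2f and Slc24a1) and 6 at P38 against P32 (these and Grk1 and Rgs9bp), all higher at the later age. In the same fit 14.3% and 10.2% of all genes tested passed. The remaining P32 mice were then 4 and 5, those with the lowest slopes of their group. Leaving out mouse 4 or 5 gave no call.

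Set against the rod cascade in the same library, none of the 10 genes passed the test between all 9 cKO and 3 P30 retinas, which pools ages and so can miss opposite shifts. For each gene the mean log2 CPM of 9 rod cascade genes was subtracted. The cKO mean minus the P30 mean ran from −0.13 (Gucy2f) to 0.07 (Slc24a1), with exact two-sided permutation p from 0.45 to 0.995 over 220 assignments and adjusted p of 0.995 for all 10 genes. The smallest p the design allows is 0.00455. For Rgs9 the difference was −0.01, with a mean of −4.25 ± 0.67 (SD) at P30 and −4.26 ± 1.23 in the cKO mice, whose age means were −5.50, −3.77 and −3.52. For Gnb5 the means at P30, P32, P34 and P38 were −2.33, −2.19, −2.53 and −2.54, while its own log2 fold changes relative to P30 at the last 2 ages were 0.02 and 0.05 and the medians of the rod cascade 0.29 and 0.35, so the reference moved more than the gene. For Slc24a1 the means were −1.11, −1.33, −0.93 and −0.88. Single ages were not tested on this scale.

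**Figure D4:**
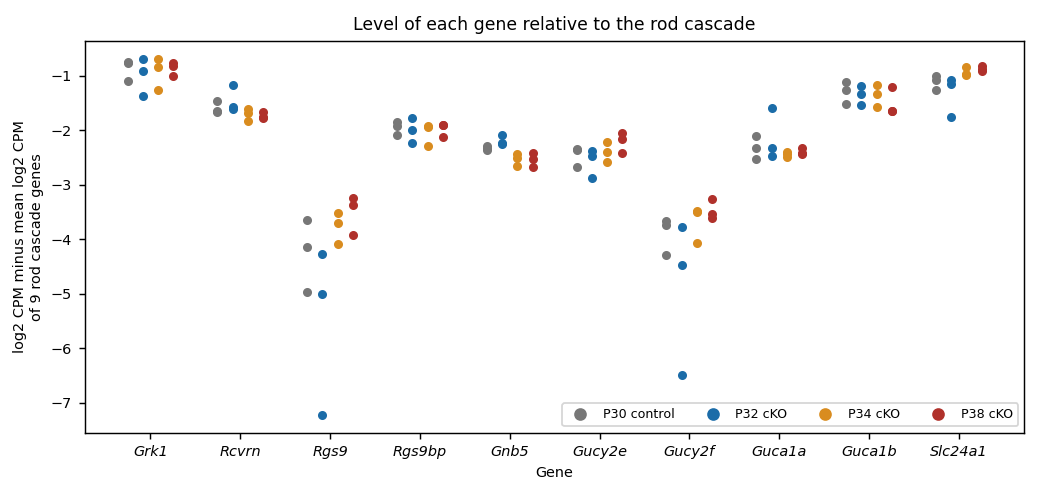
Log2 CPM of each gene minus the mean log2 CPM of 9 rod cascade genes in the same library (y axis), for the 10 genes (x axis). Points are single mice, colored by group. Rgs9 and Gucy2f spread over several log2 units, with the lowest point in a P32 mouse. All values are relative to the reference genes, which had their own changes between groups.

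Other genes of recovery and calcium control gave 0 calls among 17 in every comparison with P30. At an unadjusted p of at most 0.05 (edgeR test) there were 2 at P32, Slc24a2 and the cone arrestin gene Arr3, beside 5.64% of all genes. There were 3 at P34 (Calm3, Rgs6 and Rgs7bp), beside 10.5%, and 0 at P38, beside 5.64%. Arr3 had log2 fold changes of 0.53, −0.34 and −0.04 in the P32, P34 and P38 groups, each ± 0.21, and Rgs6 had 0.37 ± 0.12 at P34. Sag, the arrestin that caps the phosphorylated receptor, had log2 fold changes of 0.02, 0.13 and 0.34 in the P32, P34 and P38 groups, each ± 0.25. Slc24a2, the cone exchanger, had −0.48 ± 0.20, 0.41 ± 0.20 and 0.31 ± 0.20. Rd3, which restrains the cyclases, had −0.08 ± 0.10, −0.11 ± 0.10 and 0.04 ± 0.10. The RGS protein gene Rgs7 had −0.06 ± 0.09, 0.16 ± 0.09 and −0.03 ± 0.09, and its anchor gene Rgs7bp −0.14 ± 0.12, 0.33 ± 0.12 and 0.15 ± 0.12.

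Among 10354 other genes with a mean of at least 10 CPM, the 5 whose log2 CPM followed the mean of the 10 genes most closely over the 12 libraries were Impg2 (r = 0.99), Xiap (r = 0.99), Arfgef1 (r = 0.99), Nbr1 (r = 0.99) and Dpysl3 (r = 0.98). Their longest transcripts had 4789 to 6978 bases, against a median of 3724 bases over the candidates. Of the 30 genes nearest to the 6 longest members, 5 for each, 26 were longer than that median, and of the 20 nearest to the 4 shortest members 5 were. For Slc24a1 the nearest was Rbp3 (r = 0.99) and for Rgs9 Cnot1 (r = 0.996). These correlations are descriptions over libraries that share the length slopes given above.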

How the data were processed

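Whole retinas of 12 mice were sequenced as stranded mRNA libraries with short single reads. The authors mapped reads to mm10 with STAR 2.5.3a, counted them per gene with HTSeq 0.6.1p1 in union mode, and deposited raw counts per gene, 1 set per mouse, without normalization. Symbols, positions and exon lengths came from GENCODE M21 (GRCm38), which named 99.88% of genes. Groups came from the labels.

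Counts were filtered and TMM-scaled in edgeR 4.0.16 (R 4.3.3), and all libraries entered 1 quasi-likelihood fit with a mean per group. P-values were adjusted over the 18628 genes tested. The SE is the size of the log2 fold change divided by the square root of F. Log2 CPM used a prior count of 2. DESeq2 1.42.0 was an alternative, beside other scalings, filters, a sex covariate, a robust fit and leaving out each mouse. The genes named by rule are the 10 members, set genes of the recovery and marker lists, list genes past the threshold and the 5 closest in pattern. Otx2, Xist, Gm19531, Rbp3, Cnot1, Arr3, Calm3 and Rgs6 are named beside them, the last 5 after their values were seen. The members and lists were chosen with earlier results of these data known. Libraries of a group differed beyond sampling noise (chi-square per degree of freedom 19.7 to 254). On simulated P34 against P30 counts for 18628 genes, 90 of 100 genes changed by a log2 fold of 2 and 53 of 100 changed by 1 were recovered, with 5 false calls. The p-values measure the spread between mice. The labels and the study's methods give different concentrations of the tamoxifen stock, so the dose stated in the study is left out here. Separate values of 1 listed gene are not reported here.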

Additional observations from a re-analysis of the deposited data

How the results depend on the processing

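Of 23 other settings run for the counts of called genes, all but 3 gave 0 of 10 in each comparison they could be run for. With no filter on low counts, 1 gene was called at P34 against P32 (Rgs9) and 2 at P38 against P32 (Rgs9 and Gucy2e). DESeq2 called 1 and 3 in these comparisons and 2 for any difference among the 4 groups. Leaving out 1 mouse at a time gave 0 to 4 calls at P34 against P32, 0 to 6 at P38 against P32 and 0 to 1 for any difference, the highest in each case without P32 mouse 6. The number of all genes called moved with them. At P34 against P32 it was 45 in the edgeR fit, 656 with no filter, 1406 by DESeq2 and 2726 without mouse 6. At P38 against P32 it was 0, 201, 913 and 1946, and for any difference it was 64 in the edgeR fit, 1274 by DESeq2 and 587 without mouse 6. The causes were not tested.

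None of the 10 genes was called in the reported fit, so no call could turn its direction. Of 1600 member fold changes under other settings, 1526 kept the sign of the reported value and 74 did not, none of them past the threshold in the reported fit. Against the rod cascade, 0 of 10 genes also passed with a prior count of 0.5 and with 4 photoreceptor markers as the reference. Leaving out a mouse raises the smallest p so far that a single gene could not pass after adjustment, so those fits say nothing about stability. No paired analysis was possible because the labels number the mice 1 to 12, with no number shared between groups. With 3 mice per group, the 95% interval of Rgs9 at P38 against P30 ran from −0.29 to 2.05.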
